A study of Mus musculus with 5 samples.

Results

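RNA-seq libraries of 2 lines of mouse embryonic fibroblasts were compared: one labelled as carrying both added Meis1 and added Prep1 (MP), the other infected with an empty vector (EV). Genes were taken from the authors' table that sets EV against MP. Of its 61082 loci, 22894 carried 1 gene symbol and were used, 37277 carried none and 911 joined several. The 22894 loci held 21372 genes, and 11031 of these reached 1 scaled unit or more in EV or MP. A scaled unit is FPKM (fragments per kilobase of transcript, scaled to library size, as estimated by the authors) after each library was multiplied so that its 75th percentile, over single-gene loci at 1 FPKM or more in either library, was 10. Differences are log2((units + 1)/(units + 1)), and a gene was counted as 2-fold apart where this was at least 1 in size. The 1 that is added to both levels makes the difference smaller for genes with low levels.

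The series held 5 libraries, 1 per group. EV, M (Meis1 overexpressed), P (labelled as overexpressing Prep1) and MP (labelled as overexpressing both) were made from C57BL/6 fibroblasts that are Prep1 hypomorphic, so EV also carries the allele of low Prep1. WT was a Prep1 wild-type line whose label names no vector. Per the labels the cells were taken from E14.5 embryos and were at passage 30. With 1 library on each side, every difference below lies between 2 libraries and not between conditions, no p-value was computed, and no spread between replicates can be given. The labels' protocols name neither the vector's promoter nor the number of clones or embryos behind a line. In bulk RNA, fewer cells with a transcript and less of it per cell cannot be told apart.

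Meis1 and Prep1, the product of Pknox1, are homeodomain transcription factors of the TALE class. Both bind DNA with Pbx partners at related sites and so can occupy shared or separate places in the genome. In fibroblasts and leukaemic cells Meis1 is known as a factor that favours growth and transformation, and Prep1 as a factor that can act against it. The comparison of MP with EV asks what both factors do together when the cells' own Prep1 is low, and setting it beside M and P asks whether the joint change equals the separate ones put together.

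The labels were checked first at the 2 targeted genes. Meis1 stood at 15.4 units in MP, 8.28 in EV, 16.8 in M, 8.85 in P and 12.4 in WT. The libraries labelled as carrying added Meis1 were therefore the highest at this gene, and MP over EV was 0.82 on the log2 scale. Pknox1 stood at 0.568 in MP, 2.15 in EV, 3.24 in M, 0.553 in P and 11.0 in WT. The Pknox1 level of MP was thus below EV (-1.01) and 5.15% of WT, which goes against the label, and every direction given below is that of the library labelled MP. Whether reads of an added Prep1 cDNA would be assigned to the Pknox1 locus by the authors' counting was not tested.

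Several facts of the whole series touch all results. In the MP table the 75th percentile was 153.6 FPKM in EV and 9.66 in MP, a 15.9-fold gap that scaling removes. Genes were listed at 0 in 27.5% of cases in MP and 2.18% in EV. The Olfr and Vmn receptor genes, which are odour and pheromone receptors, were above 0 in 12.7% of 1422 cases in MP, 99.9% in EV, 70.0% in M, 10.9% in P and 17.1% in WT. EV had a median of 0.281 units at these genes and M one of 0.19, whereas the median of the other 3 libraries was 0. EV and M therefore held signal at genes where the other libraries mostly had none. Among genes at 1 unit or more in EV, M, P or MP, only 1 in 100 exceeded 1.64 times their 75th percentile in MP. Levels of well expressed genes thus lay in a narrow range, and whether this makes differences between libraries smaller was not tested. Of 17 fibroblast identity genes, 14 were kept, and the list summed to 195 units in MP, 206 in EV, 191 in M, 176 in P and 178 in WT. Col1a1, Col1a2, Vim, Thy1 and Prrx1 stood at 11.5 to 22.8 units in MP. Fap was listed at 0 in MP and stood at 0.134 in EV.

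Promoter sequence is shown for the gene with the highest level in MP among those 2-fold above EV, Igfbp5, and for Dact1, the 1 of the markers Igfbp5, Sox11, Pdgfra, Dact1 and Akr1c18 whose stretch holds a TALE half-site. Both are the 250 bases before the annotated start from RefSeq (GRCm38.p6, whereas the authors' files use mm9), written 5′ to 3′ on the gene's strand. Capitals mark TGACAG, the half-site recognised by Meis and Prep proteins.
Igfbp5, chr1:72874866-72875115, minus strand: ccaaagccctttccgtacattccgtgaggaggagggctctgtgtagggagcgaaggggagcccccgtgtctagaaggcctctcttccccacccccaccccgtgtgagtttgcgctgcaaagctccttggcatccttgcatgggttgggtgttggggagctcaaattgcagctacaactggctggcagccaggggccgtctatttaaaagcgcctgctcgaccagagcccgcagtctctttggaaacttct
Dact1, chr12:71309634-71309883, plus strand: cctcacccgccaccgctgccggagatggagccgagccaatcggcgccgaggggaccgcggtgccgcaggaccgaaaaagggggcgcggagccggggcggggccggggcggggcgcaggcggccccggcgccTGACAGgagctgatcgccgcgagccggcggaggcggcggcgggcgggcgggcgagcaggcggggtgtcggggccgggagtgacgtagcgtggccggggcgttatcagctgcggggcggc
The Igfbp5 stretch is 58.8% G and C with 10 CpG pairs and holds no match to the 4 motifs searched. That of Dact1 is 80.4% G and C with 41 CpG pairs, and its half-site starts 119 bases before the annotated start. The stretches of Sox11, Pdgfra and Akr1c18 were 58%, 54.4% and 41.6% G and C and held no match.

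In all, 23 of 11031 genes (0.209%) stood at least 2-fold higher in MP than in EV, and 226 (2.05%) at least 2-fold lower. Most of these genes had low levels. Among the 8530 genes at 5 units or more in either library, 9 were higher and 59 lower, and 96.65% lay within 0.5 of 0 on the log2 scale. No gene at 15 units or more was 2-fold higher, and 7 genes at 15 to 20 units and 4 at 20 to 50 were 2-fold lower. The values just inside the bound of 1 were Pear1 at 1.04, Acot1 at 1.05 and Jam2 at 1.05, and those just outside were Kcnj2 at 0.97, Il20ra at 0.97 and Kazald1 at 0.95. Among lower genes, Ano1 stood at -0.9997, just outside. With quantile normalisation in place of the scaling the split was 53 higher and 142 lower, so the share of higher genes among those 2-fold apart was 27.2% in place of 9.24%. After subtracting the receptor genes' median from each library it was 42 higher and 152 lower (21.6%).

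**Figure D1:**
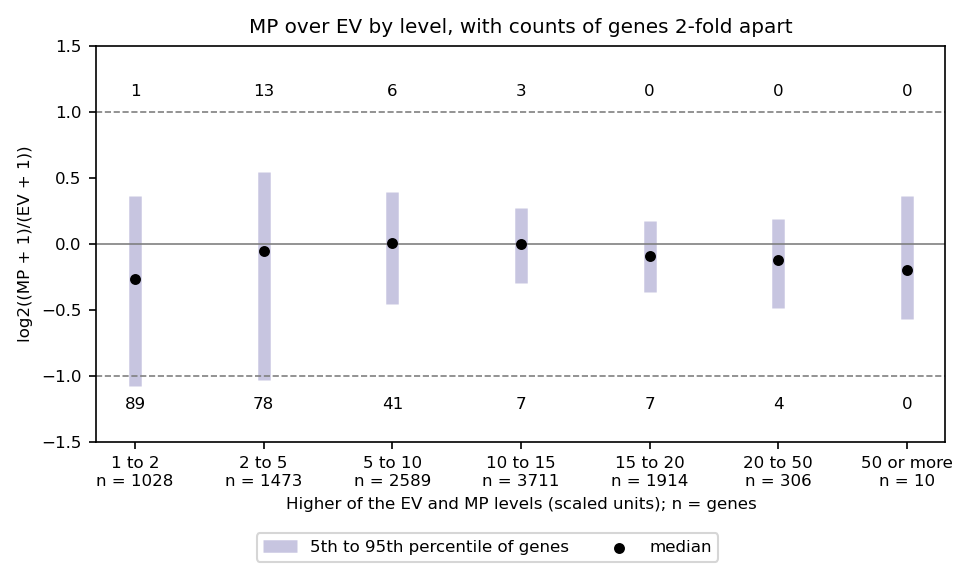
Genes grouped by the higher of their EV and MP levels (x axis, scaled units) against log2((MP + 1)/(EV + 1)). Bars run from the 5th to the 95th percentile of genes, dots are medians, dashed lines are 2-fold and the numbers count genes beyond them. The bars narrow from 2 to 5 units upward to 15 to 20 units, and 59 of the 226 lower genes lie at 5 units or more.

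The 9 genes 2-fold higher at 5 units or more were Sort1, Igfbp5, Akr1c18, Sox11, Pdgfra, U90926, Prl2c2, Dact1 and Prkg1. Sort1 encodes sortilin, a receptor that sorts proteins between the Golgi and lysosomes. It stood at 5.68 units in MP, 0.855 in EV, 0.572 in M, 5.72 in P and 4.19 in WT, and its log2 ratio of MP over EV was 1.85. Levels near 5 units were thus found in P, MP and WT, and levels under 1 in EV and M. Igfbp5, which encodes a carrier that binds and modulates IGF ligands, stood at 13.8 in MP, 3.39 in EV, 6.69 in M, 13.9 in P and 9.13 in WT (log2 1.75). MP and P were the highest libraries at this gene and MP over P was -0.01. As deposited, without scaling, the same gene stood at 52.1 FPKM in EV and 13.3 in MP, and the authors' deposited table marked it as significantly lower in MP.

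Akr1c18, a steroid dehydrogenase that inactivates progesterone, stood at 10.3 units in MP, 2.80 in EV, 6.90 in M, 10.3 in P and 3.52 in WT (log2 1.57). Unlike Sort1 and Igfbp5, it was low in WT as well as in EV. Sox11, a transcription factor of progenitor cells, stood at 8.11 in MP, 2.52 in EV, 2.98 in M, 7.68 in P and 5.97 in WT (log2 1.37). M was close to EV at Sox11, with M over EV at 0.17. Dact1, an intracellular modulator of Wnt signalling, stood at 5.47 in MP, 1.95 in EV, 3.45 in M, 6.97 in P and 4.84 in WT (log2 1.13). EV was the lowest library at each of these 3 genes.

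Pdgfra, the alpha receptor for platelet-derived growth factor, stood at 7.69 units in MP, 2.54 in EV, 6.54 in M, 5.78 in P and 11.8 in WT (log2 1.30). All 4 other libraries lay above EV here, and the authors' table gives its locus the status FAIL, under which their test returned no call. Prkg1, a cGMP-dependent protein kinase, showed the same order, with 5.75 in MP, 2.18 in EV, 4.87 in M, 4.005 in P and 15.8 in WT (log2 1.09). Prl2c2, a proliferin of the prolactin family, stood at 11.7 in MP, 4.76 in EV, 5.76 in M, 16.7 in P and 20.9 in WT (log2 1.14). The Prl2c genes are close copies, so their split of reads is uncertain, and Prl2c3 lay the other way at 3.77 in EV and 2.24 in MP (-0.56). U90926 stood at 5.37 in MP, 1.64 in EV, 3.63 in M, 8.88 in P and 8.56 in WT (log2 1.27).

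**Figure D2:**
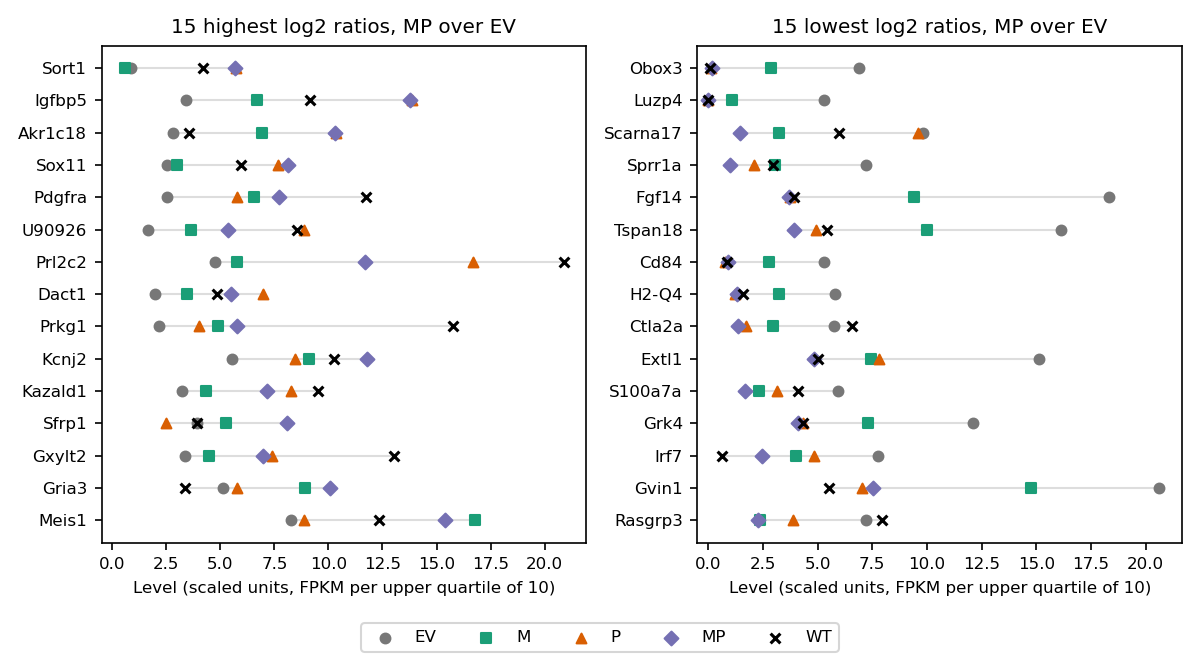
Level in each of the 5 libraries (x axis, scaled units, 1 symbol per library) of the 15 genes with the highest and the 15 with the lowest log2 ratio of MP over EV, among genes at 5 units or more in either. On the left EV is the lowest library at all but Sort1, Sfrp1 and Gria3, and on the right EV is the highest library at all but Ctla2a and Rasgrp3, where WT is higher.

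The next 6 genes in rank fell short of 2-fold. Kcnj2, an inward rectifier potassium channel, stood at 5.51 units in EV and 11.8 in MP (log2 0.97), with 9.09 in M and 8.44 in P. Between it and Meis1 lay Kazald1 (0.95, status FAIL), a secreted protein related to the IGF-binding proteins, and Gxylt2 (0.87), a xylosyltransferase. Gria3 (0.86), a glutamate receptor subunit, lay there too. Sfrp1, a secreted Wnt inhibitor, differed from these in its order: it stood at 8.07 in MP, 3.92 in EV, 5.24 in M, 2.49 in P and 3.93 in WT (0.88). MP was the highest library at Sfrp1 and P the lowest.

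The other 14 genes that stood 2-fold higher were under 5 units in both libraries. Highest among them were Prex2 (1.60), an exchange factor for Rac, Rnf144b (1.46), a ubiquitin ligase, Kcnk10 (1.43), a potassium channel, and Jup (1.34), the junction protein plakoglobin. Jup stood at 3.68 units in MP, 0.852 in EV, 0.655 in M, 4.65 in P and 8.01 in WT. Perp, a desmosome-linked p53 target, was close to the bound at 0.654 in EV and 2.06 in MP (0.89). These 14 genes were described after their values were seen, since the rule for named genes asks for 5 units.

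Short stretches around the TALE half-site are shown for 4 of the higher genes whose promoter holds it, in order to place the motif in its context. RefSeq gave promoters for 16 of the 23 higher genes, and TGACAG, read on both strands, was in 5 of them (31.2%), against 16.0% of all 27025 promoters and 14.1% of the 8141 promoters of kept genes. Among the higher genes at 5 units or more it was in 1 of 7 (14.3%). Capitals mark the motif or its reverse complement, on GRCm38.p6, 5′ to 3′ on the gene's strand.
Acot1, chr12:84009270-84009295, plus strand: tcagctttggCTGTCAttgtgctttg
BC039966, chr4:153950507-153950532, minus strand: gattttttatTGACAGgtaaccctta
Dact1, chr12:71309755-71309780, plus strand: ccccggcgccTGACAGgagctgatcg
Jup, chr11:100397791-100397806, minus strand: tgtggcttggCTGTCA
The match lies 222 bases before the annotated start in Acot1, 46 in BC039966, 119 in Dact1 and 6 in Jup. Among the 122 promoters of lower genes the share was 13.9%. TGANTCA, the AP-1 site, was in 0 of 16 promoters of higher genes, 8.2% of those of lower genes and 6.87% of all promoters. The joint Pbx and Prep or Meis site TGATTGAC was in 0 of 16 and 0.707% of all promoters. A TGATTGAC followed by AG also holds TGACAG, so these matches can overlap. A match describes letters and shows no binding.

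Among lower genes, several of the furthest apart are known from other tissues. Obox3, an oocyte homeobox gene, stood at 0.158 units in MP, 6.89 in EV, 2.87 in M, 0.137 in P and 0.079 in WT (log2 -2.77). Luzp4 stood at 5.29 in EV and 1.09 in M and was listed at 0 in P, MP and WT. Rhox8, a homeobox gene of the reproductive tract, stood at 4.44 in EV and 0.084 in MP (-2.33). At all 3 genes EV was highest, M came next and the other libraries were near 0. The list of pluripotent and germ cell markers, from which they come, summed to 13.2 units in MP, 33.4 in EV, 19.7 in M, 15.4 in P and 2.85 in WT. These sums include the 3 genes, and all lists were chosen with earlier results of these data known. Most of the MP sum was Sox2, which differed little between EV and MP, at 12.6 and 11.8 units (-0.09). In WT, where the list sum was lowest, Sox2 stood at 0.629. In MP, 4 of the list's 11 measured genes were listed at 0 (Zfp42, Dppa3, Dazl and Luzp4), where 27.5% of all genes were. Of these, Dppa3 and Dazl were under the receptor genes' 95th percentile of 0.563 units in EV as well. Pou5f1 stood at 0.589 in EV and 0.0795 in MP. The part of such cells, or of the EV background, in these differences was not tested.

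Sprr1a, a precursor of the keratinocyte's cornified envelope, stood at 0.975 units in MP, 7.19 in EV, 3.03 in M, 2.09 in P and 2.98 in WT (log2 -2.05). Sprr2a1, of the same family, stood at 3.01 in EV and was listed at 0 in MP. Keratinocyte markers, Sprr1a and Sprr2a1 among them, summed to 4.50 units in MP, 19.6 in EV, 7.97 in M, 6.32 in P and 7.67 in WT. Of the 4 kept members, 1 lay above EV, Trp63, at 1.06 in EV and 1.43 in MP (0.24). In MP 7 of 16 were listed at 0, where 27.5% of all genes were. Among them were Krt5, Krt1 and Lor, which stood at 0.68, 0.781 and 0.256 in EV. Lor was thus under the 95th percentile of the Olfr and Vmn receptor genes in EV (0.563). S100a7a, an epidermal calcium-binding protein, was lower too, at 5.95 in EV and 1.68 in MP (-1.37). Cd84, a receptor of leukocytes, stood at 5.27 in EV and 0.882 in MP (-1.74). The macrophage list, which holds Cd84, summed to 20.2 units in EV and 17.0 in MP, and its 3 kept members lay on both sides of EV. Csf1r, a growth factor receptor of macrophages, stood at 1.88 in EV and 3.70 in MP (0.70), and Cd14, a lipopolysaccharide receptor, at 9.68 and 12.0 (0.28). Emr1, Tyrobp, Lyz1 and Lyz2 were listed at 0 in MP and were at 0.363 or less in EV, under the 95th percentile of the Olfr and Vmn receptor genes there (0.563).

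Fgf14, an intracellular FGF homologue that binds sodium channels, stood at 3.70 units in MP, 18.3 in EV, 9.42 in M, 3.72 in P and 3.92 in WT (log2 -2.04). Tspan18, a tetraspanin, followed the same order, at 3.92 in MP, 16.1 in EV, 10.0 in M, 4.92 in P and 5.42 in WT (-1.80). EV was apart at these well expressed genes and M lay between it and the rest. Extl1 (-1.46), an exostosin-like glycosyltransferase, and Grk4 (-1.36), a receptor kinase, also stood above 10 units in EV and under 5 in MP. Ctla2a (-1.51), a cysteine protease inhibitor, and Rasgrp3 (-1.33), an exchange factor for Ras, differed in that WT lay above EV, at 6.57 and 7.93 units.

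Genes of MHC class I antigen presentation, which load and display peptides to T cells, stood lower in MP as a group. Of 25 listed genes 18 were kept. All 18 had a log2 ratio under 0, as 6319 of all 11031 kept genes did. Kept members under 1 unit in MP, however, passed the filter only through EV, which fixes their sign. Of the 20 measured members 11 were under 1 unit in MP, among them Tap1, Psmb8, H2-Q7 and H2-Q8. In the list 6 were at least 2-fold lower, where 2.05% of all kept genes were. That share was larger at low levels, with 78 of 1473 genes lower at 2 to 5 units and 89 of 1028 at 1 to 2. At 5 units or more the list's count was 2 of 8, where 59 of all 8530 genes were lower. The median was -0.65, against -0.03 over all kept genes. Tap1, a subunit of the peptide transporter, stood at 0.348 units in MP, 3.42 in EV, 1.34 in M, 0.48 in P and 3.78 in WT (-1.71). H2-Q4, a class I heavy chain, stood at 1.33 in MP, 5.81 in EV, 3.21 in M, 1.24 in P and 1.605 in WT (-1.55). The heavy chain H2-K1 was lower at a higher level, with 8.95 in MP, 19.4 in EV, 14.6 in M, 8.32 in P and 8.40 in WT (-1.03). At these heavy chains WT was close to P and MP, whereas at Tap1 WT was close to EV. Psmb8 (-1.28), a subunit of the immunoproteasome, and the heavy chains H2-Q8 (-1.21) and H2-Q7 (-1.17) completed the genes 2-fold lower. B2m, the light chain shared by all class I molecules, stood at 16.9 in EV and 14.4 in MP (-0.22), and Nlrc5, the class I transactivator, at 7.55 and 4.52 (-0.63). Class I genes share long stretches of sequence, so the split of reads among the H2 genes is uncertain.

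Interferon-stimulated genes, which respond to viral and inflammatory signals through STAT and IRF factors, were also lower. Of 42 listed genes 36 were kept, and 34 of these had a log2 ratio under 0, as did 6319 of all 11031 kept genes. Of the 38 measured members 9 were under 1 unit in MP. Those of them that were kept passed only through EV, which fixes their sign. In the list 7 were at least 2-fold lower and 0 higher, where 2.05% of all kept genes were lower. The list's median was -0.54. With a pseudocount of 0.1 the count of lower members was 13 of 36, where 485 of all 11031 kept genes were lower. At 5 units or more it was 2 of 20, where 59 of all 8530 genes were. Irf7, the factor that amplifies the interferon response, stood at 2.44 units in MP, 7.75 in EV, 4 in M, 4.84 in P and 0.646 in WT (-1.35). MP was thus below both M and P at Irf7. Ifi44, an interferon-induced protein, likewise had MP below M and P, at 1.55 in MP, 5.18 in EV, 2.85 in M, 2.49 in P and 0.176 in WT (-1.27). Trim30a, an interferon-induced ubiquitin ligase, stood at 0.508 in MP, 3.54 in EV, 1.44 in M, 0.635 in P and 1.96 in WT (-1.59). The immunity-related GTPases Iigp1 (-1.37), Igtp (-1.17) and Irgm2 (-1.05), and Oas1b (-1.20), of the oligoadenylate synthetase family, were the others. Gvin1, a very large interferon-inducible GTPase, was among the 15 lowest genes. It stood at 7.54 in MP, 20.6 in EV, 14.8 in M, 7.03 in P and 5.51 in WT (-1.34), and its status was FAIL. The class I and interferon lists share 0 genes. Their medians in M were -0.36 and -0.32, and in P -0.56 and -0.55, with the same EV library in each comparison.

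Sequence is shown for the interferon list because interferon-stimulated genes are known to share a response element near their starts. GAAANNGAA, the core repeat of the interferon-stimulated response element, was in 14 of 26 promoters of kept members (53.8%), against 7.16% of all promoters and 3 of 13 (23.1%) in the class I list. It was in 3 of 5 promoters of the members 2-fold lower. Those 3 are given with the core or its reverse complement in capitals, from RefSeq on GRCm38.p6, 5′ to 3′ on the gene's strand.
Igtp, chr11:58199512-58199540, plus strand: tctaggaactGAAACTGAAagctgttcgg
Irgm2, chr11:58214903-58214931, plus strand: tccaggaactGAAACTGAAagctgttcgg
Trim30a, chr7:104465210-104465238, minus strand: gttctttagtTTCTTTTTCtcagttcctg
The core lies 34 bases before the annotated start in Igtp, 64 in Irgm2 and 35 in Trim30a. TGANTCA was in 8 of the 26 (30.8%), and 5 promoters held both motifs.

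Signalling genes were mostly near 0, with single members apart. Over all kept genes 0.209% were 2-fold higher and 2.05% lower, and 1 member of so short a list describes that gene only. In the IGF list, Igfbp5 was the 1 member of 8 kept that was 2-fold higher. Igfbp4, a related binding protein, stood at 8.76 units in MP, 4.92 in EV, 5.04 in M, 12.4 in P and 12.1 in WT (0.72). In the PDGF list of 5 kept, Pdgfra was higher and Pdgfrb stood at 9.09 in EV and 12.6 in MP (0.43), and the ligands Pdgfa (-0.34) and Pdgfd (-0.26) lay below 0. Both PDGF receptors thus lay above EV, and these ligands below it. Of 7 kept FGF genes 1 was 2-fold lower, Fgf14, and the receptor Fgfr2 stood at 6.36 in EV and 10.3 in MP (0.62).

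Wnt inhibitors held 1 gene 2-fold higher, Dact1, and 1 lower, Apcdd1, of 9 kept. Over all kept genes these shares were 0.209% and 2.05%. With quantile normalisation 2 inhibitors were higher and 0 lower. Apcdd1, a membrane inhibitor, stood at 2.03 units in MP, 5.48 in EV, 5.89 in M, 1.54 in P and 10.0 in WT (-1.10). Notum, which removes the lipid of Wnt ligands, stood at 2.57 in MP, 0.926 in EV, 2.54 in M, 2.94 in P and 4.48 in WT (0.89). The inhibitors therefore lay on both sides of EV. None of 19 Wnt ligands and receptors and none of 9 Wnt targets and TCF factors was 2-fold apart, but 1 ligand or receptor was higher with quantile normalisation or with the receptor median subtracted. Of 28 genes of the TGF-beta and BMP families 2 were lower, against 2.05% of all kept genes. This count was 1 with median ratio scaling, summed loci or genes at 5 units, and 0 with quantile normalisation. Nog, the BMP antagonist noggin, stood at 0.927 in MP, 3.19 in EV, 0.463 in M, 2.82 in P and 0.157 in WT (-1.12). Fstl1, a secreted glycoprotein that binds BMPs, stood at 18.8 in MP, 39.0 in EV, 27.8 in M, 18.9 in P and 17.5 in WT (-1.01). The inhibitory Smad6 (0.80) and the BMP target Id4 (0.69) lay above 0.

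Among transcription factors, the Meis, Prep and Pbx list had 3 of 8 kept members 2-fold lower, where 2.05% of all kept genes were. With quantile normalisation, with the receptor median subtracted, or among its 4 genes at 5 units or more, it had 0. Besides Pknox1 these were Pknox2, which encodes Prep2, at 4.12 units in EV and 1.44 in MP (-1.07), and Pbx4, at 1.53 and 0.243 (-1.02). AP-1 subunits, the Fos, Jun and Maf proteins that bind DNA as dimers, had 0 of 13 kept members 2-fold apart and a median of -0.17. The members furthest from 0 were Jund (-0.51), Batf3 (-0.48), Maf (0.48) and Junb (-0.44). Fos stood at 10.1 in MP, 7.95 in EV, 6.11 in M, 6.29 in P and 10.7 in WT (0.31). Hox genes, with 7 kept, had none 2-fold apart. Sox11 was the 1 gene apart of 6 Sox factors, where 0.209% of all kept genes were higher. Sox13 stood at 4.59 in EV and 1.95 in MP (-0.92).

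**Figure D3:**
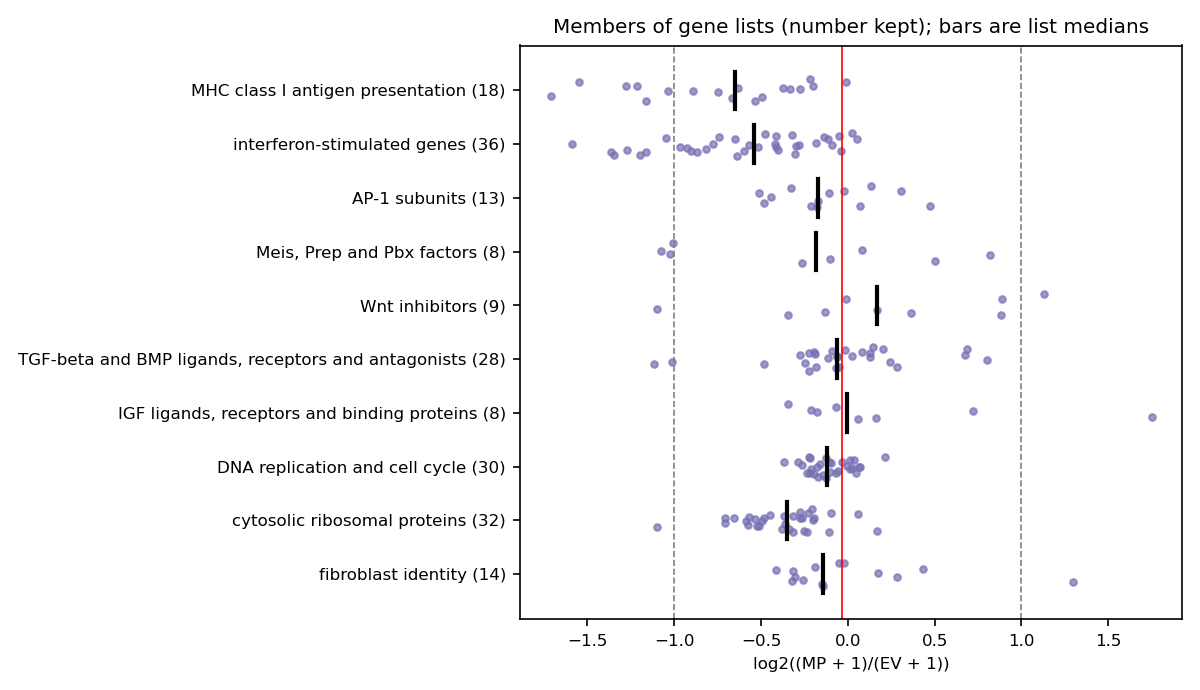
Log2((MP + 1)/(EV + 1)) of each kept member (points, spread vertically for visibility) of 10 gene lists. Black bars are list medians, the red line is the median of all kept genes (-0.03) and dashed lines are 2-fold. The class I (-0.65) and interferon (-0.54) medians are the furthest from the red line among these lists, and cell cycle members stay between -0.37 and 0.21.

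Growth and housekeeping lists held few genes 2-fold apart between MP and EV, though the medians given here lay below 0. DNA replication and cell cycle genes, with 30 kept, had a median of -0.12 and 0 genes 2-fold apart. Mki67, the proliferation marker, stood at 14.6 units in MP, 16.8 in EV, 15.3 in M, 11.9 in P and 10.9 in WT, and Top2a, a topoisomerase of dividing cells, at 13.9 in MP, 15.3 in EV, 12.6 in M, 9.52 in P and 8.60 in WT. MP lay between EV and P at both genes. Collagen chains had a median of -0.18 over 17 kept, with none 2-fold apart and Col5a3 (-0.99) the lowest. Smooth muscle and myofibroblast genes stood at -0.31 over 16 kept, led by the actin cross-linker Flna (-0.48). Cytosolic ribosomal protein genes had a median of -0.35 over 32 kept, 30 of them under 0. At 5 units or more their median was -0.35, beside -0.41 in the interferon list and -0.45 in the class I list. Serpinb2, a plasminogen activator inhibitor, was the 1 of 18 proteases and inhibitors that was 2-fold lower, where 2.05% of all kept genes were. Serpinb2 stood at 3.18 in MP, 7.60 in EV, 3.08 in M, 7.12 in P and 11.7 in WT (-1.04). It was not 2-fold lower with quantile normalisation or with the receptor median subtracted.

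Base composition and length varied along with the ratio. At 5 units or more, the median log2 ratio of MP over EV went from 0.09 in the decile of genes with the lowest GC content of their transcripts to -0.16 in the highest. In M these medians were 0.10 and -0.15, and in P -0.07 and 0.03. Over transcript length, MP went from -0.15 in the shortest decile to 0.05 in the longest. The 226 lower genes had a median transcript of 2108 bases, against 3427.5 over kept genes, and 91.6% of them had a value. The class I, interferon and ribosomal lists were not compared within classes of length or GC, and the part of these properties in their medians was not tested.

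Each change in MP was set beside the sum of the changes in M and in P over the same EV. The distance from that sum is the MP change minus the sum. EV enters all 3 changes, so the changes are not independent and only values are given. Of 11326 genes at 1 unit or more in EV, M, P or MP, 81 (0.715%) stood at least 2-fold above the sum and 87 (0.768%) at least 2-fold below it. At 5 units or more, 91.28% of 8844 genes lay within 0.5 of the sum, with a median distance of 0.07. Over all genes at 5 units or more, MP was closer to M than to P in spread. The SD of its log2 ratio was 0.199 over M and 0.291 over P, and 0.253 over EV (8530 genes). At the genes 2-fold apart from EV, MP was closer to P. The median of MP over P was -0.01 at the 23 higher genes and -0.02 at the 226 lower ones. Over M these medians were 0.85 and -0.58.

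Among the 23 genes 2-fold higher in MP, the change was as a rule less than the sum. Their median was 1.19 in MP, 0.71 in M and 1.38 in P, which sum to a median of 1.62, and 21 of 23 lay below their sum. These genes were chosen for their ratio of MP over EV, and EV enters the sum through both M and P. A low EV value at a chosen gene would by itself place MP below the sum. These values are therefore a description and show no departure from additivity. Igfbp5 changed by 0.80 in M and 1.76 in P, a sum of 2.56, and by 1.75 in MP, which is 0.81 below the sum. Akr1c18 changed by 1.05 in M and 1.58 in P, and its MP change of 1.57 was 1.05 below the sum of 2.62. At both genes MP equalled P within 0.01. Sox11 was nearer to additive, with 0.17 in M, 1.30 in P and 1.37 in MP. Sort1, with -0.24 in M and 1.86 in P, lay 0.23 above its sum. Pdgfra changed by 1.08 in M, 0.93 in P and 1.30 in MP, and Dact1 by 0.59, 1.44 and 1.13.

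The 226 lower genes showed a like shortfall on their side. They too were chosen by their ratio to EV, and a high EV value would by itself place MP above the sum. Their distances are likewise a description. Their median was -1.24 in MP, -0.75 in M and -1.14 in P, against a summed median of -1.85, and 35 of 226 lay below their sum. In MP 66 of these genes were listed at 0, so their ratios depend on the 1 that is added. Of the 226 lower genes, 5 were themselves Olfr or Vmn receptor genes. Irf7 was close to additive, with -0.81 in M, -0.58 in P and -1.35 in MP. Fgf14 changed by -0.90 in M, -2.04 in P and -2.04 in MP, and H2-Q4 by -0.70, -1.605 and -1.55. The median distance from the sum was 0.31 in the class I list and 0.34 in the interferon list, against 0.05 over all kept genes.

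**Figure D4:**
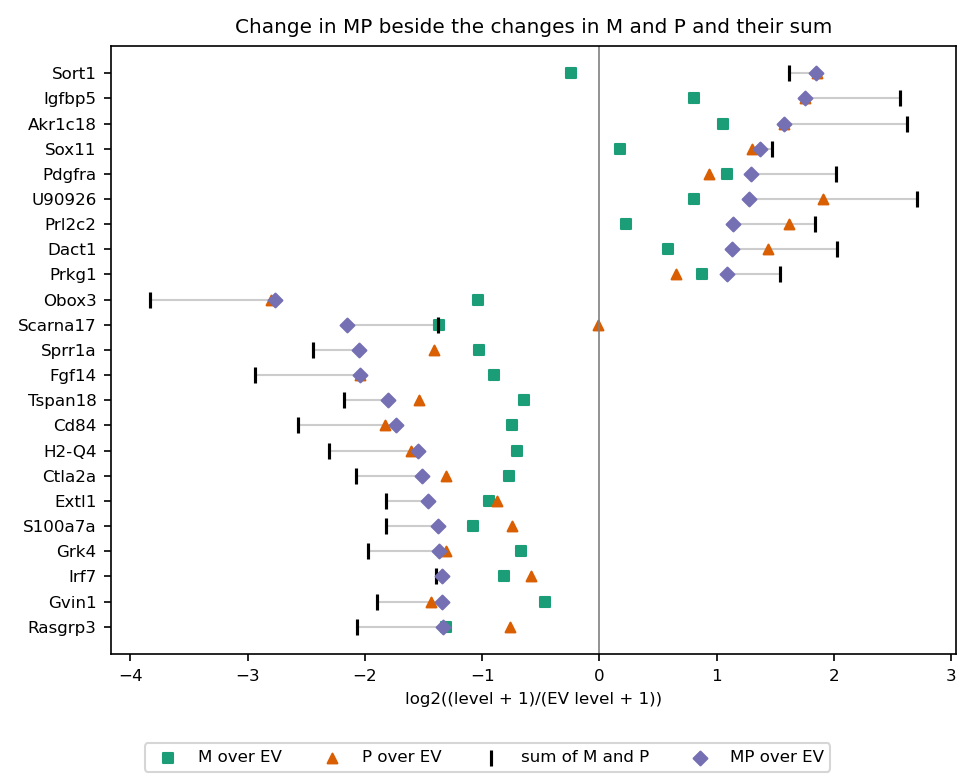
Log2 ratio over EV (x axis) in M, P and MP and the sum of the M and P ratios (vertical tick), for the 9 genes 2-fold higher and 14 of the 15 lowest genes at 5 units or more. Luzp4, listed at 0 in MP, is not drawn. MP lies closer to 0 than the sum at all but Sort1 and Scarna17. The genes were chosen by their ratio to EV, which enters every ratio shown.

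At the genes furthest above the sum, P was as a rule the lowest of the 4 hypomorphic lines and MP stood above it. Kcnip1, a subunit that regulates potassium channels, stood at 14.8 units in MP, 16.0 in EV, 10.4 in M, 5.004 in P and 2.93 in WT. Its sum was -2.08 and its MP change -0.11, a distance of 1.97. Axin2, a Wnt target that acts as a feedback inhibitor, stood at 37.3 in MP, 48.8 in EV, 39.0 in M, 16.7 in P and 14.4 in WT, 1.43 above the sum. Tmtc2, a membrane protein of the endoplasmic reticulum, showed the same order, at 34.0 in MP, 52.0 in EV, 49.2 in M, 13.7 in P and 7.92 in WT (1.35). MP was nearer to M than to P at both genes. Ctse (1.44), the protease cathepsin E, Camk1d (1.56), a calmodulin-dependent kinase, and Fosb (1.47), an AP-1 subunit, had MP between EV and M, as Kcnip1 did, whereas at Axin2 and Tmtc2 MP lay below both. Nemf, a factor of ribosome quality control, was the 1 gene of the 8 with MP above all others, at 57.1 in MP, 37.0 in EV, 24.4 in M, 22.1 in P and 29.7 in WT (1.92), and its status was FAIL. Luzp4, listed at 0 in P and MP, was also among the 8, and no ratio is given for it. Sfrp1 stood 1.04 above its sum.

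At the genes furthest below the sum, MP was mostly lower than both M and P, with Slco4a1 and U90926 as exceptions. Scarna10, a Cajal body RNA that guides the modification of small nuclear RNA, stood at 1.42 units in MP, 4.90 in EV, 8.14 in M, 8.14 in P and 12.4 in WT, 2.54 below the sum. Rfx1, a winged-helix transcription factor, stood at 2.58 in MP, 5.32 in EV, 5.14 in M, 8.13 in P and 9.51 in WT (-1.30). Armc7 (-1.27), Scand1 (-1.27) and Klrg2 (-1.24) likewise had their lowest level of these 4 hypomorphic lines in MP. Slco4a1, an organic anion transporter, differed: it stood at 3.76 in MP, 2.04 in EV, 3.28 in M, 9.76 in P and 16.5 in WT (-1.66), and only P and WT were high. U90926 (-1.44) was the other. Genes 2-fold from the sum had short transcripts on both sides, with a median of 1119 bases below it and 1612 above it, against 3387 over all genes compared with the sum, and 96.55% and 90.12% had a value. The loci of Rfx1, Klrg2 and Slco4a1 had the status FAIL. With only loci of status OK, the count below the sum was 42 in place of 87.

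**Figure D5:**
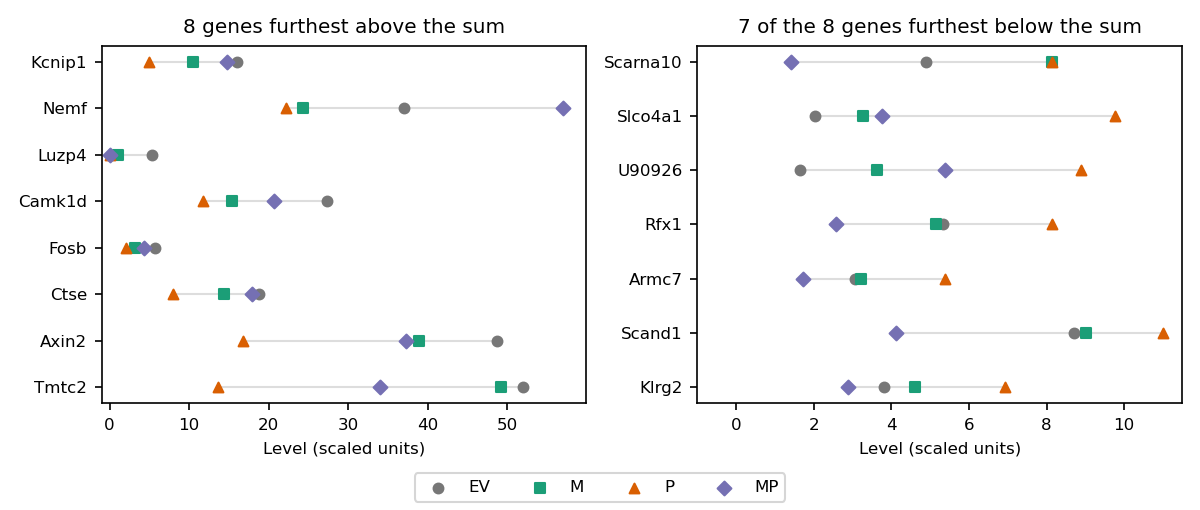
Levels in EV, M, P and MP (x axis, scaled units) of the 8 genes furthest above and 7 of the 8 furthest below the sum of the M and P changes, among genes at 5 units or more in 1 of the 4 libraries. On the left P is lowest, or listed at 0 with MP, and on the right MP is lowest at all but Slco4a1 and U90926.

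Finally, MP was set against each of the other 4 libraries. No gene of 11860 stood 2-fold above all of them (0%), and 7 (0.059%) stood 2-fold below all. Among them were 6 small RNA genes, Snord37, Mir1905, Mir5098, Scarna10, Snord4a and Mir1982, named here because they are so few. Of the 7 genes, 5 were listed at 0 in MP. Snord37, a guide RNA for ribosomal RNA methylation, stood at 8.18 units in EV, 8.92 in M, 21.6 in P and 28.2 in WT and was listed at 0 in MP. Among 89 kept small RNA genes, 33 were 2-fold lower in MP than EV and 1 higher, against 2.05% and 0.209% of all kept genes. Of the 89, 26 were listed at 0 in MP, 21 in P, 15 in M and 0 in EV. Genes were kept at 1 unit or more in EV or MP, so each gene at 0 in MP was kept through EV. Genes under 1 unit in both were left out, such as Snord61, listed at 0 in both and at 5.47 in P. The counts at 0 therefore depend on this filter. For snoRNA, Cajal body and U RNA genes alone, 30 kept, the median was -0.34 in MP, -0.15 in M and 0.08 in P.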

How the data were processed

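Illumina libraries of total RNA from 5 cultures, 1 per group, were sequenced (per the labels' protocols). TopHat, Cufflinks and Cuffdiff were used with mm9, per the submitters' processing notes. Versions, annotation, strandedness and read filters: not given in the sources used here. The authors deposited 4 tables of FPKM per locus, each setting EV against 1 other library. The authors' q-value and p-value columns, as deposited, come from the authors' test of 1 library against 1, and only the loci marked significant (largest q 0.0447 in the MP table) were counted. In the MP table they marked 1 single-gene locus as higher, a minor locus of Atad2b, and 9437 as lower. Depth is unknown, because the tables hold no counts, so no counting error could be given.

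Loci with 1 gene symbol were used. For the 1154 symbols with several loci, the locus whose log2(FPKM + 1) was highest on average was taken. Each library was scaled to a 75th percentile of 10 within its table, and EV values come from the MP table except in the M, P and WT ratios. Levels of M, P and WT are scaled from their own tables, which the authors normalised separately. Named genes were the 15 highest and 15 lowest in MP over EV at 5 units or more and the 8 furthest above and below the sum, without names such as Gm, Mir, Snor, LOC, AF or Rik. Also named were Meis1, Pknox1, 5 preset markers and, in each list described, the members 2-fold apart or up to 4 with the largest changes. Some results that these rules cover are not reported here. Other genes named singly were chosen after their values were seen. Members and all 45 lists were chosen with earlier results of these data known. The computations used Python 3.11.15, numpy 2.4.6, pandas 2.3.3 and matplotlib 3.10.9, and were tested on simulated data. Promoters came from RefSeq (GRCm38.p6), which matched 8141 of 11031 kept genes by symbol. GC content, transcript length and gene span came from the reference annotation of another build and were matched by symbol, with no coordinates used. Alternatives were the pseudocount, the filter, 3 other scalings, summed loci and a sum of differences in units. Added after seeing the data were loci of status OK, subtraction of the receptor genes' median, and WT in place of EV.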

Additional observations from a re-analysis of the deposited data

Results flagged for a closer look

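At 5 small RNA genes adding a factor, as labelled, went with opposite signs without and with addition of the other. The values are of 1 library each, so these differences were not tested. These genes fall outside the rule for named genes, and 4 of them were listed at 0 in MP, where the log2 value depends on the 1 that is added. Mir3091 stood at 0 units in MP, 0.88 in EV, 2.99 in M and 7.09 in P. Adding Meis1, as labelled, went with 1.08 without added Prep1 and -3.02 with it, and adding Prep1 with 2.10 and -1.996. EV and M were not free of Prep1 transcript, with Pknox1 at 2.15 and 3.24 units, above P (0.553) and MP (0.568). Snord61 was listed at 0 in MP and in EV and stood at 2.41 in M and 5.47 in P, which gave 1.77 and -2.69 for Meis1 and 2.69 and -1.77 for Prep1. For added Prep1 alone, Snord37 gave 1.30 without added Meis1 and -3.31 with it, Snord4a 2.18 and -1.35, and Mir762 1.01 and -1.04. Mir762 stood at 1.46 units in MP, 3.62 in EV, 4.08 in M and 8.28 in P.

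Among loci that no comparison used, 2 of the 37277 loci without a gene symbol stood at 5 units or more in MP and 2-fold above EV, and 162 lay 2-fold below at that level. Of the 911 loci that join several symbols, 0 were 2-fold higher and 6 lower.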

How the results depend on the processing

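The main counts were 23 genes higher, 226 lower, 81 above the sum and 87 below it. With a pseudocount of 0.1 in place of 1 they were 67, 485, 241 and 317, and with genes kept at 5 units they were 9, 59, 38 and 37. On values as deposited, where the median of all genes is -3.44, they were 0, 20816, 2692 and 12599. Quantile normalisation gave 53 higher and 142 lower. Adding differences in units in place of log2 ratios put 123 genes above the sum. Chosen after seeing the data, loci of status OK gave 42 genes below the sum, subtraction of the receptor median gave 42 higher, and WT in place of EV gave 190 higher and 959 lower. The cause of these moves was not tested, other than the smaller number of genes under the stricter filters. The other settings moved each count by less than 1.5 times.

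As deposited, the library shift reversed each named higher gene: Sort1 -1.12, Igfbp5 -1.89, Akr1c18 -2.01, Sox11 -2.17, Pdgfra -2.25, U90926 -2.08, Prl2c2 -2.59, Dact1 -2.30, Prkg1 -2.40, Kcnj2 -2.79, Kazald1 -2.68, Sfrp1 -2.80, Gxylt2 -2.76, Gria3 -2.89 and Meis1 -3.01. It also put Ctse (-0.0377), Axin2 (-0.0813) and Tmtc2 (-0.1675) below the sum. Pknox1 fell short of 2-fold with quantile normalisation (-0.83) and with the receptor median subtracted (-0.87). The 15 lowest genes over EV kept their direction and stayed 2-fold apart in each setting that held them, and WT in place of EV was run for counts only. No paired analysis was possible because each group has 1 library. No library could be left out for the same reason. Unknown depth limits genes near 1 unit most.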

Other observations

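Genes of other groups held few members 2-fold apart between MP and EV. Over all kept genes 0.209% were higher and 2.05% lower. Of 17 tetraspanins, which organise membrane domains, Tspan18 alone was 2-fold lower, and Cd53 stood at 2.69 units in MP, 1.03 in EV, 2.80 in M and 1.53 in P (0.86). In the sortilin and LDL receptor family of 11 kept genes, Sort1 was higher and Lrp1b lower, the latter at 3.06 units in MP, 9.15 in EV, 8.28 in M and 4.96 in P (-1.32). Cholesterol synthesis genes, with 17 kept, had a median of 0.08 and lay between -0.28 and 0.21. Genes of oxidative phosphorylation stood at a median of -0.15 over 36 kept, and heat shock and chaperone genes at -0.27 over 12. Clustered histone genes stood at -0.33 over 17 kept, with Hist2h4 at 9.03 units in MP and 19.3 in EV (-1.01), which was short of 2-fold with median ratio scaling, quantile normalisation or the receptor median subtracted.

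Among cytokines and placental genes, Tnfsf11, the osteoclast factor RANKL, stood at 4.50 units in MP, 2.04 in EV, 5.48 in M and 1.92 in P (0.86). Its level was thus higher in both libraries with added Meis1 than in EV and P. Wnt10b, a Wnt ligand, lay the other way, at 3.27 in MP, 6.25 in EV, 3.50 in M, 10.9 in P and 15.1 in WT (-0.76). Acan, the cartilage proteoglycan, stood at 4.81 in MP, 5.39 in EV, 1.02 in M, 9.82 in P and 0.0253 in WT. Among the hypomorphic lines, Wnt10b and Acan were both lower with added Meis1 than without it, in the pair with and in the pair without added Prep1. At Acan, however, WT was the lowest library.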
